A study of Cynara cardunculus with 12 samples.

Results

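In cardoon callus, 5 genes were either read in every replicate of the *AtMYB4oe* lines L1 and L24 and near 0 in every replicate of L18 and WT, or the other way round. They were selected on the read counts themselves: at least 30 reads in all 6 samples of one side and at most 3 in all 6 of the other. Of 26505 genes in the deposited table, 4680 with identifiers in 4 consecutive stretches were left out, and 5 of the remaining 21825 (0.0229%) met the criterion. No gene in the stretches left out met it. *Ccrd_019170* and *Ccrd_022173* were on in L1 and L24, whereas *Ccrd_016505*, *Ccrd_020489* and *Ccrd_026126* were off there. Because the counts chose the genes, the contrast of L1 and L24 with L18 and WT is described for them without a test.

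All material was friable callus, unorganised plant tissue that breaks apart easily and was induced here from leaves, and RNA was extracted in triplicate from each of the 4 cultures, 12 samples in all. L1, L24 and L18 carried *p35S::AtMYB4*, the *Arabidopsis thaliana* *MYB4* coding sequence driven by the constitutive CaMV 35S promoter. L1 and L24 were obtained with the *Agrobacterium tumefaciens* strain AGL1 and L18 with EHA105. All lines went through selection on phosphinothricin and cefotaxime. WT was untransformed callus of the same genotype at a later sub-culture, and no line with an empty vector was described. Each line was 1 transformation event, so that the p-values below measure the spread within a culture. By the study's RT-qPCR, *AtMYB4* was expressed most in L18 and least in L1. In L1 and L24 against L18, the bacterial strain, the transformation event and the transgene level cannot be told apart. Nor can the transgene, the selection and the age of the culture in any line against WT.

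AtMYB4 is a transcription factor that in Arabidopsis represses phenylpropanoid genes, which supply precursors of lignin and flavonoids. Proteins with a basic helix-loop-helix (bHLH) domain bind DNA as dimers, and several act together with MYB proteins. 3-ketoacyl-CoA synthases catalyse the first step in the elongation of fatty acids to very long chains, which end up in waxes, suberin and membrane lipids. Glucan endo-1,3-beta-D-glucosidases cut callose and related wall glucans and are known both from cell wall turnover and from defence.

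Samples held from 12505275 to 19509803 reads assigned to genes, so that 3 reads, the limit of the low side, equalled 2.16 to 3.75 normalized counts (scaled by edgeR's TMM method to the mean library). The 2 reference genes used for RT-qPCR in the study were expressed in every group. *Ccrd_012208* (elongation factor ELF1a) averaged 4704, 4226, 5473 and 5351 FPKM in L1, L24, L18 and WT, and *Ccrd_013113* (an ACT7-like actin) averaged 1799, 1493, 2142 and 1769 FPKM. FPKM are reads scaled to the exon length of the gene and to the total of the sample. The transgene belongs to Arabidopsis and was not analysed here.

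*Ccrd_019170*, described as a bHLH domain-containing protein, lies on scaffold 0 of CcrdV1 from 1199701 to 1200841 on the minus strand. Its 2 exons sum to 601 bases. It was covered by 94, 135 and 43 reads in the replicates of L1 and by 124, 98 and 163 in those of L24, against 3, 3 and 1 in L18 and 0, 0 and 0 in WT. All 6 samples of L1 and L24 therefore stood far above the others, and WT had no read at all. In normalized counts the gene averaged 78.7 ± 22.5 in L1 and 135 ± 33.0 in L24, against 2.26 ± 1.16 in L18 (SD, n = 3 each). Set against a limit of 3 counts over the group, it was at least 76.3-fold higher in L1 and at least 125-fold higher in L24 than in WT. Against the 7 reads of L18 it was 36.9-fold higher in L1 (95% counting interval 17.7 to 92.8) and 60.7-fold higher in L24 (29.2 to 152). Intervals and limits of this kind, here and for the other genes, cover counting error only and not the spread between replicates. They come from the counts that chose the genes. The criterion itself set the gap between the sides, so they are no test of it. Its 9.05 ± 3.06 FPKM in L1 and 16.0 ± 4.50 FPKM in L24 placed it in the middle of the transcriptome, since its mean over both lines exceeded that of 54.1% of the genes tested.

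*Ccrd_022173*, described as a 3-ketoacyl-CoA synthase, was the other gene on in L1 and L24. It is a single exon of 1434 bases on scaffold 139, from 81733 to 83166 on the plus strand. Its read counts were 261, 250 and 339 in L1 and 35, 71 and 30 in L24, against 1, 0 and 0 in L18 and 0, 0 and 2 in WT. L1 stood above L24 in every replicate, and the lowest L24 value lay exactly on the limit of 30 reads. The normalized counts averaged 280 ± 127 in L1 and 48.5 ± 25.9 in L24 (SD, n = 3 each), or 13.0 ± 4.96 and 2.41 ± 1.34 FPKM. Relative to WT the gene was 358-fold higher in L1 (98.7 to 2959) and 66.4-fold higher in L24 (18.0 to 554). Relative to L18 it was 808-fold higher in L1 (145 to 31959) and 150.02-fold higher in L24 (26.5 to 5969), from a single L18 read.

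*Ccrd_016505*, described as a glucan endo-1,3-beta-D-glucosidase, was the most highly expressed of the 3 genes off in L1 and L24. It lies on scaffold 13 from 366441 to 368071 on the minus strand, with exons of 1342 and 93 bases. The replicates of L1 held 2, 3 and 1 reads and those of L24 1, 2 and 0, against 1561, 1514 and 714 in L18 and 1332, 1338 and 1046 in WT. L18 and WT overlapped, and together they averaged 57.9 FPKM, above 87.1% of the genes tested. Compared to WT, the gene was 736-fold lower in L1 (338 to 2006) and 1268-fold lower in L24 (434 to 6153). Compared to L18, it was 664-fold lower in L1 (305 to 1811) and 1145-fold lower in L24 (391 to 5554).

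*Ccrd_020489* carried no description in the gene table. It is a single exon of 465 bases on scaffold 525, from 188626 to 189090 on the plus strand. One read in L1 replicate 3 was the only one in L1 and L24, whereas L18 had 109, 103 and 51 reads and WT had 277, 297 and 282. The lines L1 and L24 were thus empty but for that read, and L18 lay below WT in every replicate. The gene was 1017-fold lower in L1 (182 to 40209) and at least 292-fold lower in L24 than in WT. Against L18 it was 277-fold lower in L1 (49.2 to 10966) and at least 79.5-fold lower in L24.

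*Ccrd_026126*, listed as an uncharacterized protein, is a single exon of 1829 bases on scaffold 6000, from 15316 to 17144 on the minus strand. It also had 1 read in L1, again in replicate 3, and 0 in L24, against 414, 270 and 288 in L18 and 622, 602 and 516 in WT. As for *Ccrd_020489*, every L18 replicate lay below every WT replicate. The gene was 2067-fold lower in L1 (370 to 81686) and at least 594-fold lower in L24 than in WT, and 1022-fold lower in L1 (183 to 40419) and at least 294-fold lower in L24 than in L18. In bulk RNA of this kind, fewer cells that express a gene and less RNA per cell cannot be told apart.

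**Figure D1:**
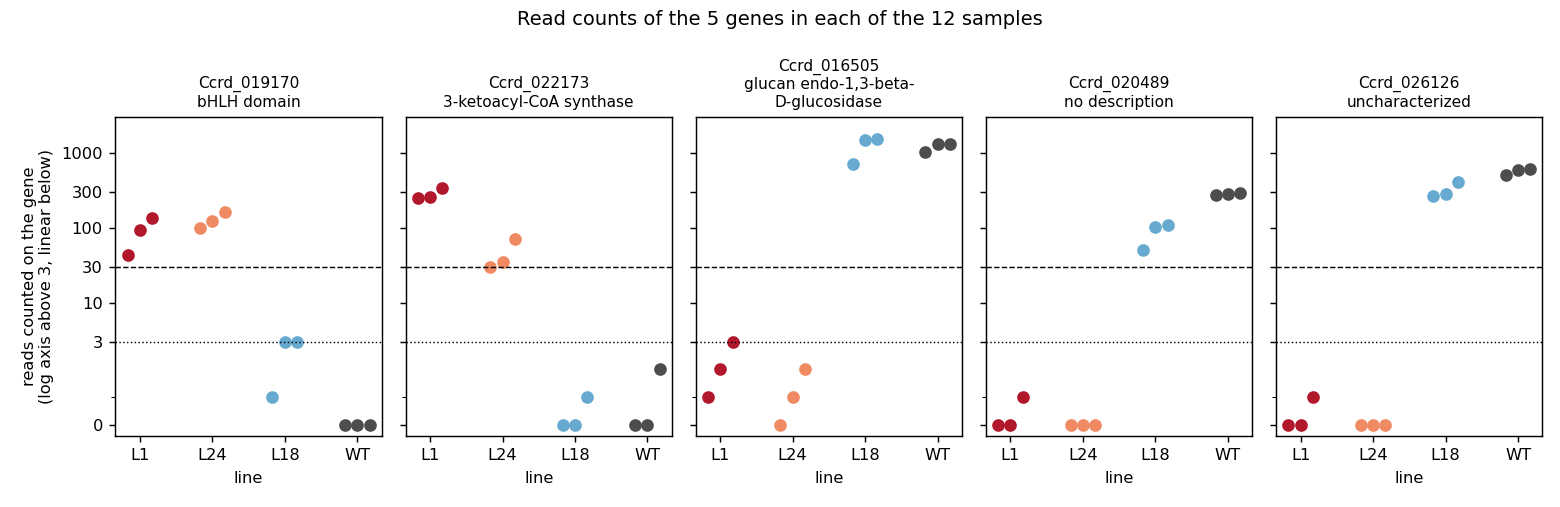
Reads counted on each of the 5 genes in every sample, on a logarithmic axis above 3 reads and a linear one below, with 1 point per replicate ordered by value within each line. Dashed and dotted lines mark the limits of 30 and 3 reads, and *Ccrd_022173* in L24 reaches down to 30 while *Ccrd_016505* in L18 reaches up to 1561.

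The criterion required at least 30 reads in both groups in which a gene was on but did not compare these 2 groups. It left out genes that fell below 30 reads in 1 of them, and so limited how far the groups could differ. The difference was tested with edgeR (quasi-likelihood F test, Benjamini-Hochberg adjusted p over 20024 genes). Shares over all genes tested are therefore not a matched background for the members. Of the 2 genes on in L1 and L24, 1 differed between these lines, beside 20.5% of all genes tested. *Ccrd_022173* was 5.75-fold higher in L1 than in L24 (log2 fold change 2.52, SE 0.42, 95% interval 3.10 to 10.7-fold, adjusted p = 0.000781), higher in 3 of 3 replicates. For *Ccrd_019170* the level in L1 was 0.586 of that in L24 (log2 fold change -0.77, SE 0.30, 95% interval 0.374 to 0.919, adjusted p = 0.09), which did not pass the threshold of 0.05. By mean FPKM the bHLH gene was the less abundant of the pair in L1 (9.05 against 13.0). It was the more abundant in L24 (16.0 against 2.41). In L1 replicate 2 the order was reversed, at 11.5 against 8.94 FPKM, and the order within a line was not tested.

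Among the 3 genes off in L1 and L24, 2 were downregulated in L18 against WT, beside 25.3% of all genes tested that changed in either direction. *Ccrd_020489* reached 84.5 ± 32.0 normalized counts in L18 and 310 ± 24.8 in WT (SD, n = 3 each), a ratio of 0.272 (log2 fold change -1.88, SE 0.30, 95% interval 0.172 to 0.430, adjusted p = 0.000782, edgeR). *Ccrd_026126* reached 308 ± 53.9 in L18 and 634 ± 111 in WT, a ratio of 0.487 (log2 fold change -1.04, SE 0.22, 95% interval 0.351 to 0.674, adjusted p = 0.004). The glucanase gene *Ccrd_016505* had 1219 ± 482 in L18 and 1353 ± 259 in WT, a ratio of 0.901 with an interval of 0.615 to 1.32 (log2 fold change -0.15, SE 0.26, adjusted p = 0.717). Its sign turned to 0.14 without L18 replicate 3 and to 0.02 without WT replicate 1. The 7 reads of *Ccrd_019170* in L18 against 0 in WT also passed this test (adjusted p = 0.0355), but both groups lay at or under the limit of 3 reads per sample and no fold change is given.

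**Figure D2:**
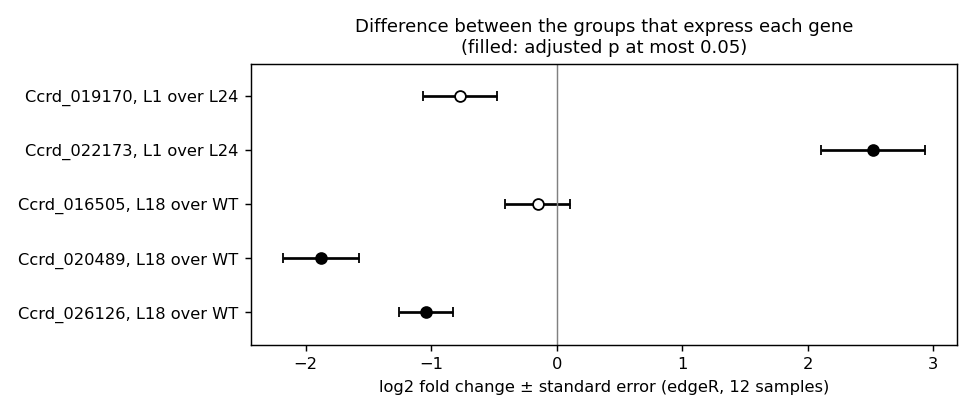
Log2 fold change (horizontal axis) with its standard error for each gene between the 2 groups that express it, L1 over L24 in the upper pair and L18 over WT below. Filled points had an adjusted p of 0.05 or less in edgeR's quasi-likelihood test, and those were *Ccrd_022173* at 2.52, *Ccrd_020489* at -1.88 and *Ccrd_026126* at -1.04.

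The criterion did not use gene structure. All 5 genes had at most 2 exons, as did 26.6% of the genes tested, and 3 were single exons, as were 12.7% of the genes tested. Their median was 1 exon, against 5 over all genes tested, while the median exon length was 1434 bases, close to 1481 over all genes tested. The 5 genes lay on 5 different scaffolds that carry from 3 to 142 annotated genes, and no other gene model overlapped any of them. None could therefore have taken reads from an overlapping annotated gene, but reads shared with near-identical copies elsewhere were not examined.

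The genes next to them on the scaffold were expressed in all 4 groups, and 1 of them was close to off in L18 and WT. Among the nearest gene on each side of each, 10 in all, 4 were higher and 3 lower in the mean of L1 and L24 against the mean of L18 and WT by edgeR's quasi-likelihood test, beside 21.9% and 23.1% of all genes tested. Only *Ccrd_022172* among these 10 changed by a log2 value of 3 or more, as did 1.75% of all genes tested (350 genes). A call on these means can come from 1 group alone. In L24 against L18, only *Ccrd_022172* and *Ccrd_016506* of the 10 were called.

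*Ccrd_022172*, described as a protein kinase domain-containing protein, follows the 3-ketoacyl-CoA synthase gene *Ccrd_022173* after 42.55 kb, at 125717 to 129154 of scaffold 139. Its read counts were 334, 389 and 237 in L1 and 362, 459 and 425 in L24, against 7, 3 and 3 in L18 and 2, 6 and 6 in WT. It thus showed the same separation and missed the criterion only by low counts of up to 7. It averaged 293 ± 11.5 normalized counts in L1 and 441 ± 70.2 in L24, against 4.08 ± 1.90 in L18 and 4.91 ± 2.15 in WT (SD, n = 3 each). The log2 fold change of the mean of L1 and L24 over the mean of L18 and WT was 6.26 (SE 0.21, adjusted p = 7.66e-10). It was lower in L1 than in L24 (log2 fold change -0.59, adjusted p = 0.0433), the opposite sign to *Ccrd_022173*, but this call was lost without any 1 of 6 libraries (WT replicate 2, every L1 replicate, L24 replicates 2 and 3), at up to adjusted p = 0.144. On the other side of *Ccrd_022173*, *Ccrd_022174* had a log2 value of 0.21 and was not called (adjusted p = 0.316).

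One further gene of the same scaffold, picked after its values were seen, separated the groups in the same way. Scaffolds 0 and 13 also held genes with large changes, given below. *Ccrd_022159*, described as a non-reducing end alpha-L-arabinofuranosidase, an enzyme that trims arabinose from wall polysaccharides, lies 366.2 kb away. It had 377, 383 and 423 reads in L1 and 292, 320 and 291 in L24, against 7, 8 and 15 in L18 and 6, 5 and 16 in WT (log2 fold change 5.15, SE 0.27, adjusted p = 1.59e-08). Of the 11 other genes tested on scaffold 139, 2 were higher and 2 lower, and their median log2 value was 0.01, as it was over all genes tested.

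Neighbours of the bHLH gene *Ccrd_019170* were present in all groups. *Ccrd_019171*, a glutaredoxin domain-containing protein 8.341 kb away, had 245, 362 and 341 reads in L1 and 129, 96 and 98 in L24, against 122, 99 and 158 in L18 and 43, 73 and 68 in WT (log2 fold change 1.05, SE 0.18, adjusted p = 0.00036). It overlapped between L24 and L18 and so did not follow the pattern of the bHLH gene. *Ccrd_019169* on the other side had a log2 value of 0.07 and was not called (adjusted p = 0.727). Scaffold 0 carries 117 other tested genes, of which 56 (47.9%) were lower and 9 (7.69%) higher in the mean of L1 and L24. Over all genes tested, 23.1% were lower and 21.9% higher. The median log2 value of the 117 genes was -0.42, against 0.01 over all genes tested. *Ccrd_019170* was on in L1 and L24 on a scaffold where lower genes outnumbered higher ones. Of the 117, 3 were called at a log2 value of 3 or more (2.56%, beside 1.75% of all genes tested), and 1 changed as far downward. Picked after its values were seen, *Ccrd_019234* was at 5.20, with 7 to 26 reads in L1 and L24 and at most 2 in L18 and WT. *Ccrd_019153* went the other way, at -6.47.

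Both genes next to the glucanase gene *Ccrd_016505* lay within 2.702 kb and were expressed in every sample. *Ccrd_016506* had 333, 534 and 224 reads in L1 and 485, 489 and 464 in L24, against 1032, 728 and 824 in L18 and 372, 390 and 397 in WT (log2 fold change -0.54, SE 0.11, adjusted p = 0.00098). *Ccrd_016504* went the other way, at 0.81 (SE 0.22, adjusted p = 0.00846). Neither came near 0 in any line. Of the 57 other genes tested on scaffold 13, 2 were called at a log2 value of 3 or more (3.51%, beside 1.75% of all genes tested), and 1 changed as far downward. Picked after its values were seen, *Ccrd_016463* was at 3.85, with 13 to 33 reads in L1 and L24 and at most 2 in L18 and WT. *Ccrd_016510*, 47.86 kb from the glucanase gene, was at 2.94. Both changed in the opposite direction to *Ccrd_016505*.

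Beside *Ccrd_020489*, *Ccrd_020490* had a log2 value of 0.59 (SE 0.17, adjusted p = 0.0112), and *Ccrd_020488*, 1.979 kb away, had -0.01 and was not called (adjusted p = 0.946). Beside *Ccrd_026126*, *Ccrd_026127* was lower at -0.64 (SE 0.18, adjusted p = 0.0102). It averaged 3516 normalized counts in L1, 2807 in L24 and 3459 in L18, against 6903 in WT, so that only WT stood apart. *Ccrd_026125* was at -0.38 (SE 0.15, adjusted p = 0.0468), and this call was lost without any one of 10 libraries, all but L1 replicate 3 and L24 replicate 1. These changes were of less than 2-fold next to genes with at most 1 read in L1 and none in L24. In L1, L24, L18 and WT, *Ccrd_020490* averaged 138, 96.5, 91.9 and 63.2 normalized counts. *Ccrd_026125* averaged 310, 217, 259 and 441. *Ccrd_020490*, *Ccrd_026125* and *Ccrd_026127* were not called in L24 against L18 (adjusted p = 0.852, 0.385 and 0.396, edgeR's quasi-likelihood test).

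**Figure D3:**
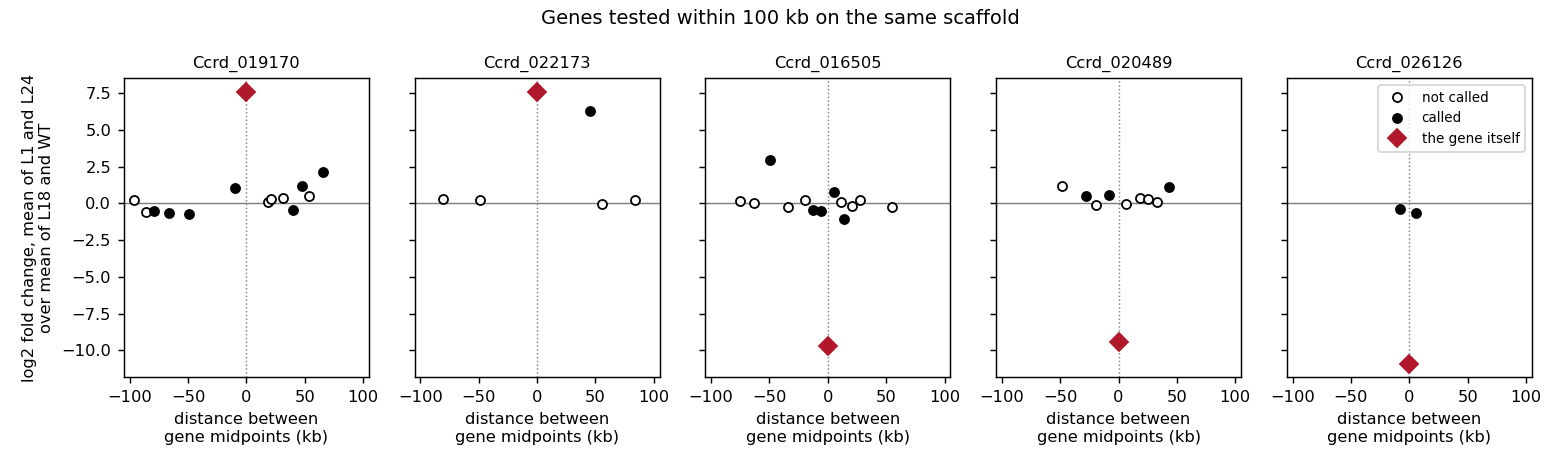
Log2 fold change of the mean of L1 and L24 over the mean of L18 and WT for the genes tested within 100 kb of each of the 5 genes, by the distance between gene midpoints. Red diamonds mark the gene itself, whose fitted height depends on the prior count because the low side is near 0, and the only other point above 3 is *Ccrd_022172* at 6.26.

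Other genes of the same families were taken from the copy of the study's gene table used here. It describes 2633 of 3630 genes, all of them differentially expressed in L1 against WT, so these lists were chosen on samples of L1 and WT. They were therefore compared between L24 and L18, which share no sample with that choice. In this comparison 14.3% of all genes tested were higher in L24 and 16.4% lower. The lists hold only genes that differed between L1 and WT, and the shares among such genes were not computed. The shares over all genes tested are therefore not a matched background for the lists.

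Of 37 other genes described as bHLH, 6 were upregulated and 10 downregulated in L24 against L18 by edgeR's quasi-likelihood test, with a median log2 value of -0.09. The listed genes thus moved in both directions, as did all genes tested (14.3% higher and 16.4% lower). Whether the list differed from other genes was not tested. Their summed expression was 461 to 507 FPKM over the replicates of L1 and 304 to 392 in L24, against 390 to 471 in L18 and 420 to 433 in WT. The examples below were chosen after their values were seen. *Ccrd_004322* had 190, 251 and 134 reads in L1 and 27, 24 and 55 in L24, and 0 in every replicate of L18 and WT. It fell outside the criterion only because 2 of the L24 replicates had fewer than 30 reads. *Ccrd_018248* had between 90 and 189 reads in L24 but between 11 and 16 in L1, against at most 3 in L18 and 0 in WT. *Ccrd_023815* averaged 48.9 ± 15.4 normalized counts in L24 and 2.31 ± 2.02 in L18 (SD, n = 3 each), with a log2 fold change of 4.37 (SE 0.71, adjusted p = 0.000712). *Ccrd_014976* was lower in L24, at 13.0 ± 8.47 normalized counts against 269 ± 75.0 in L18 (log2 fold change -4.36, SE 0.36, adjusted p = 2.15e-06), yet it had 3 reads in all of WT.

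The table named 2 further 3-ketoacyl-CoA synthase genes, and both were nearly silent. *Ccrd_003339* had 15, 0 and 12 reads in L1 and 5, 0 and 2 in L24, against 0, 1 and 0 in L18 and 0 in WT. *Ccrd_019730* had 8, 4 and 16 reads in L1 and 0 in L24, against 0, 1 and 0 in L18 and 0 in WT. Neither was called in L24 against L18 by edgeR's quasi-likelihood test. Together they summed to at most 1.48 FPKM in any sample, below the 13.0 FPKM that *Ccrd_022173* averaged in L1.

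All 4 other glucan endo-1,3-beta-D-glucosidase genes changed between L24 and L18, 3 downregulated and 1 upregulated, with a median log2 value of -1.74. Of all genes tested, 16.4% were lower and 14.3% higher. As said above, this is not a matched background for genes listed as differentially expressed in L1 against WT. *Ccrd_007112* averaged 8.52 ± 1.35 FPKM in L24 and 38.2 ± 10.6 FPKM in L18 (SD, n = 3 each), a log2 fold change of -2.26 (SE 0.24, adjusted p = 1.44e-05). *Ccrd_004719*, the most abundant of them, averaged 45.5 ± 6.86 FPKM in L24 and 101 ± 9.89 FPKM in L18 (-1.22, SE 0.19, adjusted p = 0.000256). Both were also lower in L1, at 10.1 ± 2.99 and 29.9 ± 4.91 FPKM, than in WT, at 51.4 ± 4.46 and 70.8 ± 8.95 FPKM, the comparison on which the table was selected. *Ccrd_000209*, from a stretch left out above, had a log2 value of -3.24 (SE 0.47, adjusted p = 0.000168). *Ccrd_018994* went the other way, with 168, 387 and 168 reads in L24 against 33, 11 and 50 in L18 (3.12, SE 0.43, adjusted p = 0.000115). The 4 genes summed to 37.0 to 54.8 FPKM in L1 and 61.3 to 79.6 FPKM in L24, against 148 to 170.2 FPKM in L18 and 116 to 141 FPKM in WT. None of these 4 was off in L1 or L24, and their sums in both lines were lower but measurable, whereas *Ccrd_016505* had at most 3 reads per sample there.

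**Figure D4:**
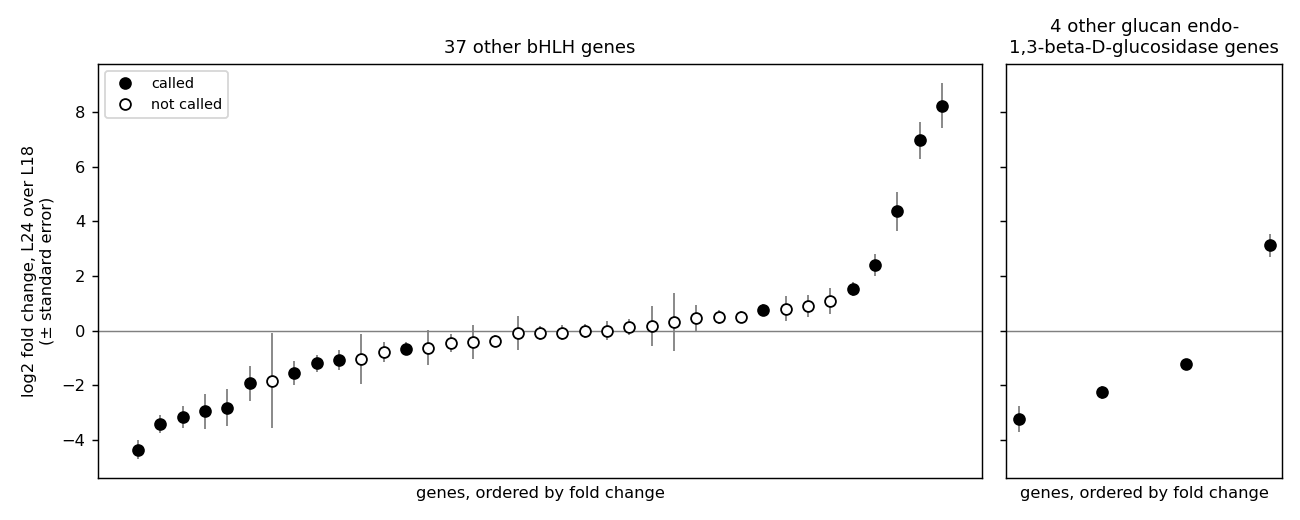
Log2 fold change (vertical axis, with its standard error) in L24 over L18 for 37 other bHLH genes and 4 other glucan endo-1,3-beta-D-glucosidase genes, ordered by value within each panel. Filled points had an adjusted p of 0.05 or less, with 6 higher and 10 lower bHLH genes, and the highest point, *Ccrd_004322*, had no read in L18, so that its height depends on the prior count.

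Genes of other cell types were followed through the same table. The 6 seed storage and oil body genes of that table summed to 90.3 to 101 FPKM in L1 and 76.7 to 93.6 FPKM in L24. The sums were 148 to 204 FPKM in L18 and 253 to 316 FPKM in WT. In L24 against L18, 2 of the 6 were downregulated, beside 16.4% of all genes tested, which is not a matched background. At most 3 reads in every replicate were found for 1 of them in L1, 2 in L24, 0 in L18 and 1 in WT. These sums were lower in L1 and L24 than in L18 and WT, and rested mainly on *Ccrd_018120* and *Ccrd_015362*. These averaged 38.9 and 44.0 FPKM in L1 and 24.3 and 55.4 FPKM in L24. They averaged 69.8 and 98.0 FPKM in L18 and 159 and 112 FPKM in WT. Between L1 and WT, *Ccrd_002866* (8.31 and 0.81 FPKM) and *Ccrd_008236* (3.75 and 0 FPKM) went the other way. The list was chosen on L1 against WT, and its part in the result was not tested. The 18 photosynthesis genes summed to 330 to 350 FPKM in L1 and 120 to 150 FPKM in L24, against 354 to 404 FPKM in L18 and 254 to 295 FPKM in WT, an order that did not divide L1 and L24 from L18 and WT. Of these 18, 1 was upregulated and 5 were downregulated in L24 against L18, beside 14.3% and 16.4% of all genes tested. Stretches left out above hold 5 of the 18, and 3 of those made up much of the photosynthesis sums. *Ccrd_006280* and *Ccrd_006285* averaged 90.1 and 163 FPKM in L1 and 14.0 and 38.5 FPKM in L24. They averaged 147 and 99.5 FPKM in L18 but 1.57 and 9.29 FPKM in WT. *Ccrd_005090*, a ribulose-phosphate 3-epimerase, averaged 46.3, 44.1, 73.3 and 139 FPKM in L1, L24, L18 and WT. It was listed only for the word ribulose in its description, which does not by itself mark photosynthetic cells. The WT sum of 254 to 295 FPKM thus rested in large part on a gene of uncertain membership.

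Genes just outside the limits give a view of how sharp the set is. The members nearest the limit of 30 reads were *Ccrd_022173* with a lowest count of 30, *Ccrd_019170* with 43 and *Ccrd_020489* with 51. The genes nearest below it were *Ccrd_004322* and *Ccrd_016140*, both on in L1 and L24 with a lowest count of 24, and *Ccrd_018451*, a RING-type domain gene off in those lines with a lowest count of 20 in L18. At the limit of 3 reads, *Ccrd_016505* and *Ccrd_019170* reached 3 and *Ccrd_022173* reached 2, while *Ccrd_007674* reached 5 and *Ccrd_018321* and *Ccrd_002963* reached 6. *Ccrd_007674*, which has no description, had 150, 95 and 109 reads in L1 and 340, 710 and 254 in L24, against 5, 5 and 1 in L18 and 0 in WT.

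Allowing up to 10 reads on the low side gave 11 genes on and 9 genes off in L1 and L24. The additional genes included *Ccrd_022172*, the kinase gene beside *Ccrd_022173*. They also included *Ccrd_004987*, an AP2/ERF domain gene of a plant transcription factor family, with 31 to 39 reads in L1 and 47 to 93 in L24, against 5 to 8 in L18 and 0 to 2 in WT. Among the genes off in both lines were *Ccrd_007135*, a leucine-rich repeat protein, and *Ccrd_015261*, a cytochrome P450 with 567 to 1508 reads in L18 and 37 to 83 in WT.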

How the data were processed

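RNA was sequenced from callus of L1, L24, L18 and WT, 3 replicates each. According to the methods, reads were trimmed with BBDuk (minimum length 35, quality 35) and aligned with STAR to the cardoon genome CcrdV1. The deposited counts are the reads that the authors counted per gene, unscaled. The deposited FPKM values were scaled by the authors to exon length and library size. All 251286 values above 0 equalled those computed anew from the counts, to a ratio of 1. Columns of the authors' own comparisons were not used.

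The tests used edgeR 4.0.16 under R 4.3.3. Alternatives also used DESeq2 1.42.0 and limma 3.58.1. Counts were scaled by TMM, genes were kept above 10.5 normalized counts in at least 1 sample, the threshold with the largest Jaccard index between replicates (0.961), and 20024 genes were fitted in 1 quasi-likelihood model of the 12 samples with Benjamini-Hochberg adjustment at 0.05. The procedure was tested on simulated data. Alternatives were other limits, filters, normalizations and tests, replicate number as a block, FPKM in place of counts and each sample left out. The members and lists were chosen with earlier results of these data known. Named genes were all members, their neighbours, 2 reference genes and the 3 genes nearest each limit on either side. Family genes and further genes of the scaffolds were named after their values were seen. Descriptions came from a copy of the study's gene table. No identifier matched the RefSeq gene table, and promoter motifs were not searched. Replicates were not averaged before testing, and no 2 samples held identical counts.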

Additional observations from a re-analysis of the deposited data

Results flagged for a closer look

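The 3-ketoacyl-CoA synthase gene *Ccrd_022173* differed in its change from WT between L1 and L24, by 2.52 on the log2 scale (SE 0.42, adjusted p = 0.000781, edgeR's quasi-likelihood test). Both lines share the WT samples, so that this difference equals that of L1 against L24. In L1 all 3 replicates (250 to 339 reads) lay above all 3 of L24 (30 to 71 reads). Its neighbour *Ccrd_022172* had a log2 value of -0.59 in the same comparison (adjusted p = 0.0433, from 0.0145 to 0.182 over its 22 alternatives, 10 of which lost the call).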

How the results depend on the processing

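The number of genes on and off in L1 and L24 (2 and 3) depended on the limits: 0 and 0 with no read allowed on the low side, 11 and 9 with up to 10 reads, 14 and 7 with at least 10 reads on the high side, 0 and 2 with at least 100, 1 and 3 on TMM-scaled counts. An FPKM of at least 1 against at most 0.1 gave 3 and 2 genes, of which 0 and 1 were members. With each library left out in turn, 2 to 3 genes were on and 3 to 5 off (5 without L1 replicate 2). Genes called in L1 against L24 numbered 2 instead of 1 with limma on log2(FPKM + 1), where *Ccrd_019170* had -0.78 (adjusted p = 0.0369, against 0.0369 to 0.327 over its 22 alternatives). The 2 genes called in L18 against WT were 2 in all 22 alternatives, and called neighbours numbered 6 to 7 with a library left out and at most 10 in any alternative, with the nearest 3 genes on each side. The log2 value of *Ccrd_020488* turned positive with library totals (0.077), in limma with a pseudocount of 1 (0.067) or 0.1 (0.069) on FPKM, and ranged from -0.098 to 0.048 with a library left out. *Ccrd_016505* ranged from -0.39 to 0.14 and *Ccrd_019169* from -0.033 to 0.19 there, and none of these 3 was called in any alternative. In both families counted after seeing the data, bHLH calls ranged from 12 to 18 and glucanase calls stayed at 4. The cause of these shifts was not tested. A fit of only the groups compared was not run for the contrast of 4 groups.

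Replicates of the same number were not paired, since the correlation of their deviations lay between -0.226 and 0.305, above 0.1 for 3 of 18 pairs. With the replicate number as a block, *Ccrd_026125* (-0.39, adjusted p = 0.061) and *Ccrd_022172* in L1 against L24 (-0.58, adjusted p = 0.0717) were no longer called, and the block changed no other call among the genes recomputed.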
